A study of Mus musculus with 6 samples.

Results

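The renin-angiotensin system genes described here are 9 mouse genes: the substrate angiotensinogen (Agt), the proteases that process it and its peptides (Ren1, Ace, Mme, Enpep), the peptide receptors (Agtr1a, Agtr1b, Mas1) and the type 1 receptor's associated protein (Agtrap). They were taken from whole-kidney microarrays as the probes whose RefSeq transcript belongs to 1 of these genes, which gave 15 of the 56605 probes and 9 of the 23785 gene symbols on the array. Total RNA from kidneys of C57BL/6J mice killed at 32 weeks of age was hybridised to 6 arrays, 3 labelled WT and 3 labelled Pck1-CKO. The Pck1-CKO mice carried 2 floxed alleles of Pck1, the gluconeogenic enzyme phosphoenolpyruvate carboxykinase, together with a γGT-Cre transgene (Pck1 flox/flox/γGT-Cre tg/+), which the labels describe as a knockout restricted to the renal proximal tubule. WT arrays came from littermates matched for age and sex. Control littermates of this breeding could have 1 of 3 genotypes: Pck1 flox/+ with the transgene (γGT-Cre tg/+), Pck1 flox/+ without it, or Pck1 flox/flox without it. The sources used here do not say which of these each WT array holds. The comparison asks how kidney RNA differs when Pck1 is deleted in the proximal tubule.

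In the renin-angiotensin system, renin from the juxtaglomerular cells of the kidney cuts angiotensinogen to angiotensin I, and angiotensin-converting enzyme cuts that peptide to angiotensin II. Angiotensin II acts mainly through type 1 receptors to constrict vessels, retain sodium and stimulate aldosterone, while neprilysin (Mme) and aminopeptidase A (Enpep) shorten angiotensins into other peptides, of which angiotensin-(1-7) is the ligand of Mas1. The proximal tubule makes angiotensinogen of its own and carries several of these peptidases on its brush border.

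The promoters of the substrate and of the 2 enzymes that lead to angiotensin II are shown because these genes hold the 3 largest log2 changes among the genes measured. RefSeq start sites (assembly GRCm38.p6) were matched for 8 of the 9 genes, and the 250 bases before the start of Agt (chr8:124569707-124569956, minus strand), Ren1 (chr1:133350424-133350673, plus strand) and the upstream start of Ace (chr11:105967698-105967947, plus strand) read as follows, 5′ to 3′ on the gene's strand. The capitals mark the letters TATAAA, searched on both strands. On the minus strand they read TTTATA.
Agt: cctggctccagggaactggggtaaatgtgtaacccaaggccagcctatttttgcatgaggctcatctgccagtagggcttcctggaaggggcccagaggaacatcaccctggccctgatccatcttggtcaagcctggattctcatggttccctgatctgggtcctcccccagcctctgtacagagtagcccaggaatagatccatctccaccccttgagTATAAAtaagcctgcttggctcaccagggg
Ren1: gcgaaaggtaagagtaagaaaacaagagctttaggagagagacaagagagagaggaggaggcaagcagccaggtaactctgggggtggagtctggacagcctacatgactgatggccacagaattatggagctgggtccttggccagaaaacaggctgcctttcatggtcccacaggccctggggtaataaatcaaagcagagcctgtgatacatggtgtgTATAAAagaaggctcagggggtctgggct
Ace: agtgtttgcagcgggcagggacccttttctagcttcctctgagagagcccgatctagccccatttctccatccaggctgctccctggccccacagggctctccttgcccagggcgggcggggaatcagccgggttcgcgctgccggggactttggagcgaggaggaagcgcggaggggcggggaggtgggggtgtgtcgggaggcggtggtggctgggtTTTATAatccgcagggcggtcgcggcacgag
In Agt and Ren1 the TATAAA lay on the gene's own strand, with its first letter 30 and 29 bases before the start, and in Ace it lay on the other strand, the capitals beginning 31 bases before the start. Together with Agtr1b, whose match lay 31 bases from its start, 4 of the 8 genes with a promoter held TATAAA between 25 and 35 bases before a start, a window chosen after the matches were seen. The 8 genes have 11 promoters, and a gene counted when any of its promoters matched. Of all 32851 RefSeq promoters, each counted singly, 2.12% held it in that window and 12.4% anywhere in the 250 bases. A match describes letters and not a bound site.

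Signals were compared as log2 of the scanner's processed signal minus the array's 75th percentile, called the normalised log2 signal below, so that 0 is the signal of a probe at that percentile. The 75th percentile lay between 528.9 and 583.1 signal units, and 37118 to 38707 probes were well above background on an array. Differences are Pck1-CKO minus WT with a standard error from limma's moderated fit over 17135 genes, n = 3 arrays a group, and a gene was called when its Benjamini-Hochberg adjusted p was under 0.05. The labels do not say whether arrays of a group came from separate mice, so the p-values measure only the spread between these arrays. All WT arrays sat in row 1 of the slide and all Pck1-CKO arrays in row 2, and row and genotype therefore cannot be told apart. The 1 probe for Pck1 read 6.29, 6.32 and 5.63 on the WT arrays and 6.44, 6.60 and 6.90 on the arrays labelled Pck1-CKO, a difference of 0.56 ± 0.22 (limma adjusted p = 0.152). It was not lower in the group labelled as the knockout, and the sources used here do not place it inside or outside the deleted part, so it checks neither the deletion nor the labels. Over all genes 743 (4.34%) were called higher and 634 (3.70%) lower. These counts depend on single arrays: at most 39 genes were called higher and 31 lower when WT 1, WT 2, Pck1-CKO 1 or Pck1-CKO 2 was left out, and at least 725 and 590 without WT 3 or Pck1-CKO 3.

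Angiotensinogen fell in the arrays labelled Pck1-CKO, and it was the only one of the 8 renin-angiotensin system genes measured that passed the test. Renin 1 and the receptor Agtr1a gave lower values and Ace higher values in Pck1-CKO, none of them past the threshold. By limma 0 genes of the set were called higher and 1 (Agt) was called lower, against a background of 8.04% of all genes called in either direction, and 3 of 8 had an unadjusted p under 0.05, against 31.2% of all genes. In 3 of 8 genes the WT and Pck1-CKO arrays did not overlap, Ace upward and Agt and Agtrap downward, against 38.3% of all genes in either direction (21.9% upward, 16.4% downward). Of the 8 changes 6 were negative, and their median was -0.07 against 0.01 for all genes tested. Agtr1b, the remaining gene, was not measured well enough to test. Because whole kidneys were used, fewer cells of a type and less RNA per cell cannot be told apart.

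**Figure D1:**
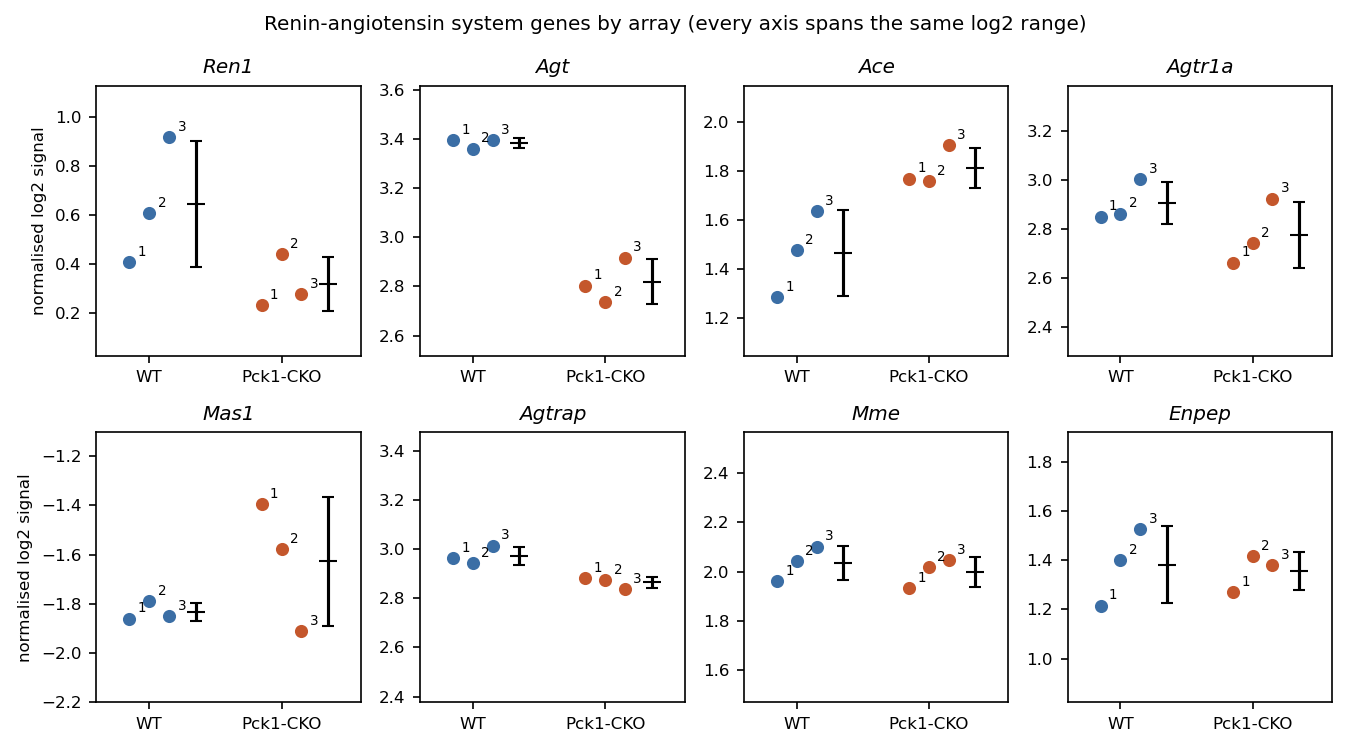
Normalised log2 signal of 8 renin-angiotensin system genes on each array (points, numbered by replicate; WT blue, Pck1-CKO orange), with the group mean ± SD beside them (black, n = 3) and the same log2 span on every axis. Agt is the gene whose groups lie farthest apart for their spread, with all WT arrays at 3.36 or above and all Pck1-CKO arrays at 2.92 or below, while the groups of Ren1, Agtr1a, Mas1, Mme and Enpep overlap.

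Agt encodes the precursor of all angiotensin peptides. Its probe read 3.40, 3.36 and 3.40 on WT arrays 1 to 3 and 2.80, 2.74 and 2.92 on Pck1-CKO arrays 1 to 3. In the scanner's linear units that was 5574, 5756.5 and 6131 against 3899.9, 3856 and 4406. Every Pck1-CKO array lay below every WT array, and the WT arrays lay close together (SD 0.02) while the Pck1-CKO arrays were more spread (SD 0.09). The difference was -0.57 ± 0.06 (95% interval -0.71 to -0.43), which is 1.48-fold lower (limma adjusted p = 0.0152 over all genes). Agt ranked 79 of 17135 genes by p, and 5.32% of genes had a larger absolute change. The call was lost when an array was left out in 4 of 6 cases, with an adjusted p of 0.0651 without WT 1, 0.0705 without WT 2, 0.0713 without Pck1-CKO 1 and 0.0695 without Pck1-CKO 2, while the change itself stayed between -0.62 and -0.53 across the 6.

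Angiotensinogen is made in the kidney's proximal tubule and, outside it, by adipocytes among other cells, so the markers of both are given beside it. All 12 proximal tubule markers were well above background on every array, with list medians of 6.58 to 6.80 on the WT arrays and 6.74 to 6.79 on the Pck1-CKO arrays. By limma 0 of them were called at an adjusted p under 0.05, and 2 had an unadjusted p under 0.05. Of 6 markers of the late proximal tubule 0 were called higher and 2 lower. These were Slc7a12, an amino acid transporter, by -2.08 ± 0.25 (limma adjusted p = 0.0200) and Slc22a19, an organic anion transporter, by -0.44 ± 0.07 (limma adjusted p = 0.0307). Both calls held without WT 3 or Pck1-CKO 3 and were lost without any 1 of the other 4 arrays. The list as a whole had 4 positive and 2 negative changes, with a median of 0.10. An unadjusted limma p under 0.05 was reached by 2 of its genes upward and 2 downward. Adipocyte markers lay the other way from Agt: all 12 had positive changes, 11 did not overlap, 5 were called higher and 0 lower, with a median change of 2.97. Their median signal was -1.93, -0.02 and -0.35 on the WT arrays and 2.79, 2.71 and 3.37 on the Pck1-CKO arrays, so WT 1 was the lowest. The count of 5 was 3 without WT 1 or Pck1-CKO 3, 5 without WT 3 and 0 without WT 2, Pck1-CKO 1 or Pck1-CKO 2. Over all genes 4.34% were called higher and 3.70% lower, and 38.3% did not overlap. The part of these marker differences in the Agt result, or in any other result below, was not tested.

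Ren1 encodes renin, the protease that starts the cascade. Its probe read 0.41, 0.61 and 0.92 on the WT arrays and 0.23, 0.44 and 0.28 on the Pck1-CKO arrays. WT 3 was the highest and Pck1-CKO 1 the lowest, and the groups overlapped because WT 1 lay below Pck1-CKO 2. The difference was -0.33 ± 0.14 (95% interval -0.67 to 0.02, limma adjusted p = 0.175), and -0.19 without WT 3. A probe named for Ren2, the second renin gene of some mouse strains, read 4.16, 4.30 and 4.57 on the WT arrays and 4.08, 4.04 and 3.80 on the Pck1-CKO arrays, without overlap. Its difference was -0.37 ± 0.13 (limma adjusted p = 0.121). C57BL/6J mice carry Ren1 and lack Ren2, and the sequences of the genes are nearly identical. In mice without Ren2 the probe named for it cannot report Ren2 transcript, and that it reads Ren1 was not tested. It is counted below with the other pathway genes and not as a probe of Ren1.

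Ace encodes angiotensin-converting enzyme, which makes angiotensin II by removing a dipeptide from angiotensin I. It read 1.29, 1.48 and 1.64 on the WT arrays and 1.77, 1.76 and 1.91 on the Pck1-CKO arrays. All Pck1-CKO arrays lay above all WT arrays, with WT 3 the closest to them. The difference was 0.35 ± 0.10 (95% interval 0.10 to 0.59), or 1.27-fold higher, and it missed the threshold (limma adjusted p = 0.0833). Ace passed under 4 alternative settings: with each array scaled to its median (adjusted p = 0.0482), with normexp background correction (0.0498), with a trended and robust variance model (0.0341) and with array weights (0.0195). Each of these 4 also called more of all genes higher than the reported fit did. Ace was not called under the other 13 settings, which include all fits without 1 array (0.26 to 0.43, limma adjusted p = 0.0517 to 0.195).

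The type 1 receptor is encoded in the mouse by Agtr1a and Agtr1b. Agtr1a, the main form in kidney, read 2.85, 2.86 and 3.003 on the WT arrays and 2.66, 2.74 and 2.92 on the Pck1-CKO arrays. The groups overlapped at Pck1-CKO 3, and the difference was -0.13 ± 0.08 (95% interval -0.34 to 0.08, limma adjusted p = 0.338). It was -0.07 without Pck1-CKO 1, -0.08 without WT 3, -0.20 without Pck1-CKO 3 and -0.05 with median scaling. Agtr1b has 2 probes. The one was well above background on 1 array of 6, WT 2, where it read -5.31 against -7.49 on WT 1 and -7.88 on WT 3, and it read -7.82, -7.19 and -8.01 in Pck1-CKO. The other probe cleared background on 0 arrays, at -8.10 to -6.17. Agtr1b therefore has no fold change here.

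Mas1 encodes the angiotensin-(1-7) receptor. Its brighter probe read -1.86, -1.79 and -1.85 on the WT arrays and -1.39, -1.58 and -1.91 on the Pck1-CKO arrays. The WT arrays were close together, and Pck1-CKO 3 lay below all of them while the remaining Pck1-CKO arrays lay above. The difference was 0.21 ± 0.13 (95% interval -0.12 to 0.53, limma adjusted p = 0.333). It was 0.09 without Pck1-CKO 1 and 0.35 without Pck1-CKO 3 (limma adjusted p = 0.638 and 0.0531), and 0.10 with normexp. The dimmer Mas1 probe read -4.53, -4.57 and -4.57 on the WT arrays and -3.94, -4.45 and -4.35 on the Pck1-CKO arrays, with no overlap, a difference of 0.31 ± 0.14 (limma adjusted p = 0.213 over 38365 probes, of which 4.29% were called). Both probes thus gave positive differences that did not pass the test.

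Agtrap encodes a membrane protein that binds the type 1 receptor and promotes its internalisation. Its brightest probe read 2.96, 2.94 and 3.01 on the WT arrays and 2.88, 2.87 and 2.84 on the Pck1-CKO arrays. The groups did not overlap, but the gap was small: -0.11 ± 0.04 (95% interval -0.21 to -0.01, limma adjusted p = 0.133), and -0.03 with median scaling. Of the other probes, the one at 1.84 to 1.92 in WT read 1.71 to 1.74 in Pck1-CKO, again without overlap (-0.15 ± 0.05, limma adjusted p = 0.113 over all probes). The dimmest Agtrap probe overlapped fully, at -0.03 ± 0.09 (limma adjusted p = 0.879). The 3 probes thus had the same sign and unequal sizes.

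Mme and Enpep, which break down angiotensins, showed no called difference on any probe. Mme encodes neprilysin, a brush-border endopeptidase. Its brighter probe read 1.96, 2.04 and 2.10 on the WT arrays and 1.93, 2.02 and 2.05 on the Pck1-CKO arrays, overlapping almost entirely, with a difference of -0.04 ± 0.06 (95% interval -0.17 to 0.10, limma adjusted p = 0.695). The dimmer Mme probe gave 0.05 ± 0.05, and the sign for the gene turned positive with median scaling (0.04) and with the mean of its probes (0.01).

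Enpep encodes aminopeptidase A, which trims angiotensin II to angiotensin III, and its 2 probes differed. The brighter read 1.22, 1.40 and 1.53 on the WT arrays and 1.27, 1.42 and 1.38 on the Pck1-CKO arrays, a difference of -0.03 ± 0.09 (95% interval -0.25 to 0.20, limma adjusted p = 0.873). The dimmer read -2.00, -2.30 and -2.42 on the WT arrays and -2.52, -2.74 and -2.84 on the Pck1-CKO arrays. On the dimmer probe the groups did not overlap, and the difference was -0.46 ± 0.14 (95% interval -0.80 to -0.13, limma adjusted p = 0.104 over all probes). The mean of both Enpep probes changed by -0.25 ± 0.05 and passed the test (limma adjusted p = 0.0413), so the call for Enpep depends on the probe. The sign of the brighter probe's difference turned with median scaling, with array weights and when WT 3 or Pck1-CKO 1 was left out.

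**Figure D2:**
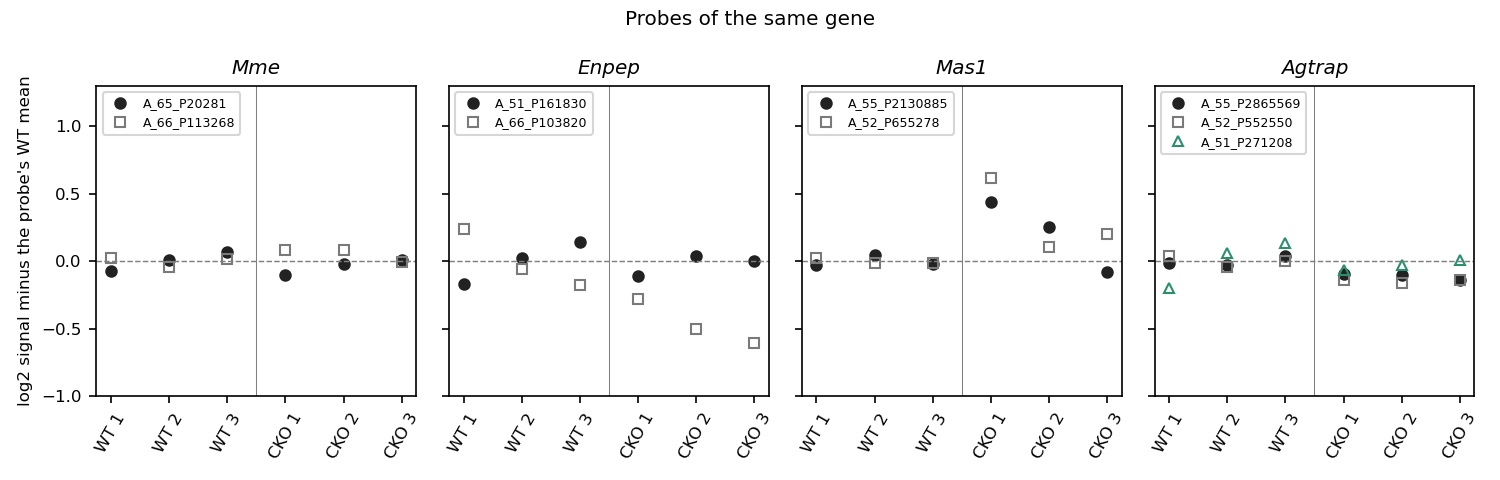
Log2 signal of each probe minus that probe's own WT mean, by array, for the 4 renin-angiotensin system genes with more than 1 probe above background (symbols name the Agilent probe; the vertical line parts WT from Pck1-CKO arrays). The Enpep probes separate, with the brighter probe near 0 on the Pck1-CKO arrays and the dimmer probe lower on each of them, whereas the Mas1 probes shift upward together on Pck1-CKO 1 and the Mme probes stay near 0.

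The wider pathway was followed with 17 other genes, of which 12 were measured: 0 were called higher and 1, Ctsa, lower by limma. Of the 12, 2 did not overlap upward (Anpep and Thop1), 4 did not overlap downward (among them Ctsa, Lnpep and Ren2) and 6 overlapped. Changes were positive in 7 and negative in 5, with a median of 0.05, and 4 had an unadjusted p under 0.05. These counts, and those of the lists below, stand beside the background shares of 8.04% called and 38.3% not overlapping.

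Ctsa encodes cathepsin A, a lysosomal carboxypeptidase that can act on angiotensin I. It read 6.63, 6.63 and 6.59 on the WT arrays and 6.43, 6.44 and 6.46 on the Pck1-CKO arrays. The groups did not overlap, and the difference was -0.17 ± 0.04 (limma adjusted p = 0.0466). The Ctsa call was lost when any 1 of the 6 arrays was left out (adjusted p = 0.0525 to 0.172).

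Anpep encodes aminopeptidase N, which takes angiotensin III to angiotensin IV. It read 4.66, 4.67 and 4.97 on the WT arrays and 5.06, 5.09 and 5.01 on the Pck1-CKO arrays, a difference of 0.29 ± 0.09 without overlap (limma adjusted p = 0.104). Without WT 3, the WT array nearest to the Pck1-CKO arrays, Anpep passed the test. The endopeptidases that cut angiotensin I to angiotensin-(1-7) gave small differences, Thop1 (thimet oligopeptidase) 0.09 ± 0.04, Nln (neurolysin) 0.09 ± 0.10 and Prep (prolyl endopeptidase) 0.07 ± 0.05, with limma adjusted p of 0.182, 0.584 and 0.428. The probes of Nln disagreed: its other probes lay lower in Pck1-CKO without overlap, at -0.25 ± 0.05 and -0.19 ± 0.05 (limma adjusted p = 0.0606 and 0.0787 over all probes). Prcp, the lysosomal carboxypeptidase that acts on angiotensin II, differed by -0.03 ± 0.06 (limma adjusted p = 0.794). Lnpep, the membrane aminopeptidase that binds angiotensin IV, differed by -0.13 ± 0.08 (limma adjusted p = 0.280), and Atp6ap2, the prorenin receptor, by 0.03 ± 0.08 (limma adjusted p = 0.816). None of these 6 passed the test.

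The other angiotensin receptors were near the floor of the array. Agtr2, the type 2 receptor, cleared background on 1 WT array and on 0 Pck1-CKO arrays. It read -5.18, -5.70 and -5.30 on the WT arrays and -6.29, -6.50 and -6.64 on the Pck1-CKO arrays. The WT arrays lay above the Pck1-CKO arrays, but with 1 array above background Agtr2 did not enter the test and no fold is given. Mrgprd, the alamandine receptor, was well above background on 0 arrays.

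Chymases and related granule proteases of mast cells and neutrophils can form angiotensin II without Ace. Cma1, mast cell chymase, was well above background on 4 arrays and read -6.34, -5.24 and -5.39 on the WT arrays and -5.45, -4.83 and -3.90 on the Pck1-CKO arrays. Pck1-CKO 3 was the highest and the groups overlapped (0.93 ± 0.47, limma adjusted p = 0.238). Mcpt4 cleared background on 0 WT and 2 Pck1-CKO arrays and was not tested. It read -6.63, -5.85 and -7.93 on the WT arrays and -6.00, -5.00 and -4.44 on the Pck1-CKO arrays, so that WT 2 lay above Pck1-CKO 1 and the groups overlapped. Cpa3 cleared background on 1 Pck1-CKO array. Ctsg cleared background on 0 arrays. Cma2, which shares a family with Cma1, differed by 0.10 ± 0.09 (limma adjusted p = 0.478). Of 7 mast cell markers on the array, 4 were measured and 0 were called by limma at an adjusted p under 0.05. Kit was the only one with an unadjusted limma p under 0.05 (0.0122), and it lay lower in Pck1-CKO without overlap (-0.35 ± 0.10). Of the 4 changes, 1 was positive, that of Cma1, and 3 were negative, with a median of -0.04. Cpa3, Cma1 and Mcpt4 belong to both lists.

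**Figure D3:**
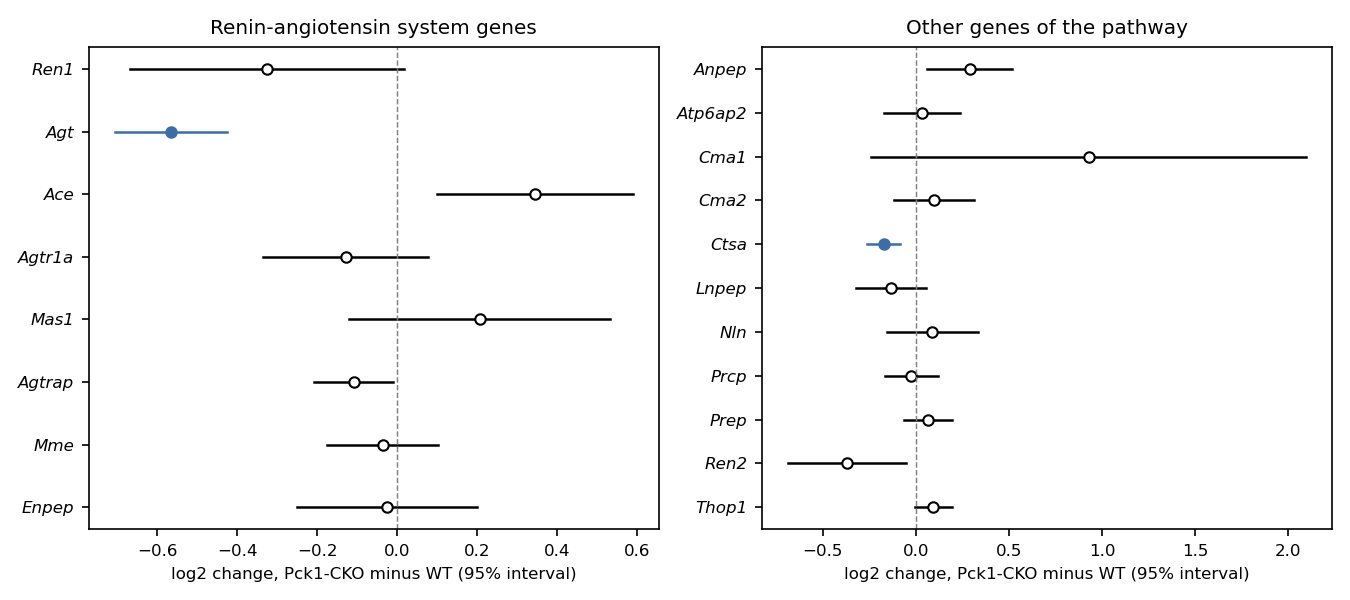
Log2 change, Pck1-CKO minus WT, with its 95% interval for 8 renin-angiotensin system genes (left) and 11 other genes of the pathway (right); filled coloured points passed the limma test and open points did not. Agt on the left, at -0.57, and Ctsa on the right, at -0.17, are the filled points, and Cma1 has the widest interval, -0.24 to 2.10.

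Kinins share enzymes with the angiotensins, since Ace and Mme also degrade bradykinin. Of 5 kallikrein-kinin genes 4 were measured, and 0 were called higher and 1 lower. Kng1, the kininogen precursor of bradykinin, read 6.72, 6.73 and 6.64 on the WT arrays and 6.46, 6.47 and 6.49 on the Pck1-CKO arrays. The groups did not overlap, and Kng1 fell by 0.22 on the log2 scale with an SE of 0.04 (limma adjusted p = 0.0388). Kng1 was called in 1 of the 6 fits that left out an array, the one without WT 3. It was not called with quantile normalization (adjusted p = 0.0638), median scaling (0.0633) or the mean of its 3 probes (0.100), the dimmest of which gave 0.04 ± 0.06. The Kng1 call was also lost without the filter on dim probes and with replicate numbers as a block. Klk1, tissue kallikrein, differed by -0.01 ± 0.06 (limma adjusted p = 0.896), and the receptor Bdkrb2 cleared background on 0 arrays.

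Downstream of the type 1 receptor, 15 of 15 genes listed for its signalling were measured, and 4 were called higher and 0 lower. The list holds G proteins and their effectors and regulators, and also Arrb1, Arrb2, Nox4 and Cyba. Rgs2, which ends Gq signalling by speeding GTP hydrolysis, read 2.35, 2.30 and 2.23 on the WT arrays and 2.82, 2.79 and 2.87 on the Pck1-CKO arrays. The groups lay well apart, and Rgs2 rose by 0.54 ± 0.05, or 1.45-fold (limma adjusted p = 0.0148). Grk2, a receptor kinase that desensitises the receptor, rose by 0.24 ± 0.03 (limma adjusted p = 0.0282), and Gna12, a G-protein alpha subunit, by 0.27 ± 0.04 (limma adjusted p = 0.0320). Plcb3, a phospholipase C named here after its values were seen because it completes the count, rose by 0.19 ± 0.04 (limma adjusted p = 0.0421). The list's median change was 0.05, with 10 positive and 5 negative changes, and 5 genes did not overlap upward and 2 downward. Over all genes 4.34% were called higher and 3.70% lower, and 21.9% did not overlap upward and 16.4% downward. The count of 4 was 1 without WT 1, 0 without WT 2, Pck1-CKO 1 or Pck1-CKO 2, 4 without WT 3 and 3 without Pck1-CKO 3, and the count of 0 lower was 2 without Pck1-CKO 3. Without the filter on dim probes 1 of the 4, Rgs2, was called, and Grk2 was not called with the mean of its probes (adjusted p = 0.0737).

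Genes of the renin cell and of renin release were measured in full, 12 of 12, with 0 called higher, 1 lower and a median change of 0.02. Crip1, a LIM-domain protein enriched in renin cells, fell by 0.22 on the log2 scale with an SE of 0.04 (limma adjusted p = 0.0431), a call that held without Pck1-CKO 3 and was lost without any of the other arrays. Median scaling also ended it (adjusted p = 0.0917). Akr1b7, an aldo-keto reductase marking renin-producing cells and named here after its values were seen, read -0.09, -0.08 and 0.00 on the WT arrays and -0.17, -0.25 and -0.31 on the Pck1-CKO arrays, without overlap. Its difference was -0.19 ± 0.05 (limma adjusted p = 0.0834).

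The macula densa senses tubular salt and signals for renin release. Of 6 of its genes 5 were measured, and 1 was called higher and 0 lower. Pappa2, a protease of insulin-like growth factor binding proteins found at the macula densa, read -4.42, -4.25 and -4.19 on the WT arrays and -3.49, -3.07 and -3.61 on the Pck1-CKO arrays. All Pck1-CKO arrays lay above all WT arrays, and Pappa2 rose by 0.90 ± 0.15, or 1.86-fold (limma adjusted p = 0.0348). This rests on its brighter probe, since the other cleared background on 0 arrays. The probe is dim, and with normexp background correction the change was 0.24 (limma adjusted p = 0.0293). The call held in the fit without Pck1-CKO 3 and was lost in the other 5 that left out an array. Nos1, the neuronal nitric oxide synthase of the same cells, differed by 0.01 ± 0.18 (limma adjusted p = 0.967), and the prostaglandin synthase Ptgs2 cleared background on 0 arrays.

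At the hormonal end of the system, 12 of 12 genes of the mineralocorticoid response were measured, and 1 was called higher and 2 lower, with a median change of 0.10. Slc12a3, the thiazide-sensitive NaCl cotransporter of the distal tubule, read 3.25, 3.21 and 3.23 on the WT arrays and 2.76, 2.79 and 2.85 on the Pck1-CKO arrays. The groups were clearly apart, and Slc12a3 fell by 0.43 on the log2 scale with an SE of 0.04 (limma adjusted p = 0.0152). Nr3c2, the mineralocorticoid receptor, fell by 0.22 with an SE of 0.05 (limma adjusted p = 0.0454), and its 3 probes all gave negative differences. The Nr3c2 call was lost with median scaling (adjusted p = 0.0898), normexp (0.0732) and no filter on dim probes (0.104). Tsc22d3, a leucine-zipper protein induced by corticosteroids, rose by 0.61 ± 0.10 (limma adjusted p = 0.0349). Called genes of this list therefore went in both directions. The counts of 1 higher and 2 lower were 0 and 0 when WT 1, WT 2, Pck1-CKO 1 or Pck1-CKO 2 was left out, 1 and 1 without WT 3, and 2 and 2 without Pck1-CKO 3.

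**Figure D4:**
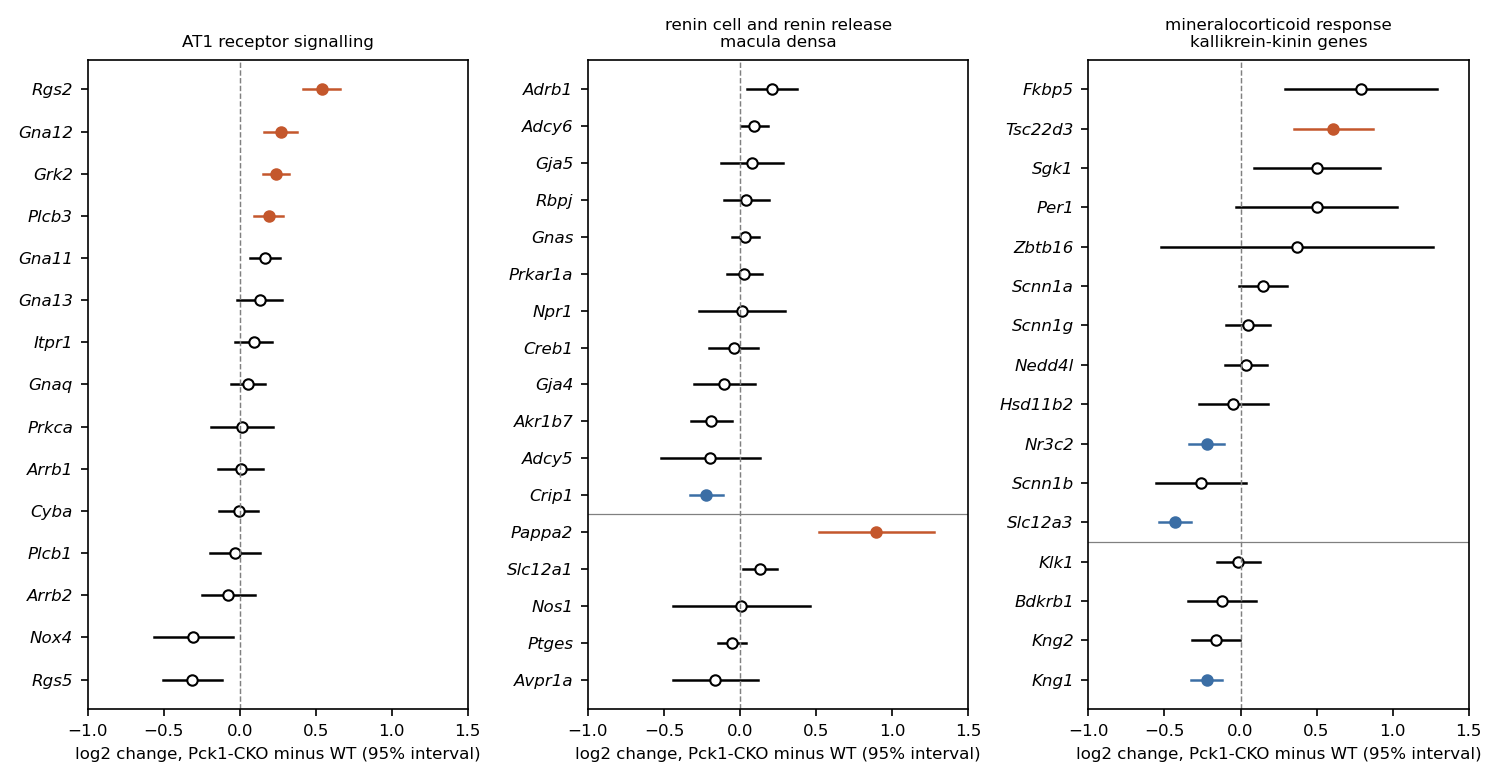
Log2 change, Pck1-CKO minus WT, with its 95% interval for genes around the renin-angiotensin system, by list (filled coloured points passed the limma test, orange higher and blue lower in Pck1-CKO; horizontal lines part lists sharing a panel). Rgs2 at 0.54, Tsc22d3 at 0.61 and Pappa2 at 0.90 are the called genes farthest to the right, and Slc12a3 at -0.43 the one farthest to the left.

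Markers of the cells that carry these genes were set beside them. Of 10 mesangial and smooth muscle markers, the lineage of renin cells, 2 were called higher (Notch3 by 0.28, Tagln by 0.27) and 0 lower, and these calls were lost in every fit without 1 array except that of Tagln without Pck1-CKO 3. The largest change of the list was a negative one that missed the threshold, Itga8 (integrin alpha 8) at -0.89 ± 0.21 without overlap (limma adjusted p = 0.0557), and Rgs5 also lay lower without overlap, at -0.31 ± 0.08 (limma adjusted p = 0.0653). Both were named after their values were seen. Of the 10 markers, 4 did not overlap upward and 2 downward. Changes were positive in 6 and negative in 4, with a median of 0.09. The list had array medians of 0.95 to 1.11 in WT and 0.89 to 1.02 in Pck1-CKO. Of 10 endothelial markers, 0 were called by limma at an adjusted p under 0.05 and 2 had an unadjusted p under 0.05, with a median change of -0.10. Of 6 podocyte markers 0 were called higher and 2 lower, among them Synpo by -0.23. The Synpo call was lost in every fit without 1 array. It rests on the brightest Synpo probe, since the dimmer probes overlapped, at -0.05 ± 0.11 and -0.03 ± 0.07 (limma adjusted p = 0.810 and 0.805 over all probes). Adrenal cortex was looked for because it lies against the kidney and makes aldosterone: 5 of 8 markers were measured, 0 were called by limma at an adjusted p under 0.05, 1 had an unadjusted p under 0.05, and Cyp11b1, Cyp11b2 and Cyp11a1 were not well above background on any array. The female transcript Xist was well above background on 0 of 6 arrays and Ddx3y, Eif2s3y, Kdm5d and Uty on all 6. The part of these differences in the values of the renin-angiotensin system genes was not tested.

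The genes whose profiles over the 6 arrays lay nearest to that of Agt, by the root-mean-square distance between log2 profiles each centred on its mean, were Slc17a4 (0.0286), Mmp11 (0.0316) and Ikzf4 (0.0381), a phosphate-family transporter, a matrix metalloproteinase and a zinc-finger factor. They differed by -0.60, -0.62 and -0.51 between the groups. Nearest to Ace were Acp5 (0.0436), Ip6k2 (0.0444) and Tbx6 (0.0479), and nearest to Ren1 were Olfr920 (0.0439), Pcsk4 (0.0466) and Dnajc6 (0.0643). For Agtr1a they were Asap3, Bbs12 and Rap1gap (0.00848 to 0.0224), for Mas1 Tsga8, Cygb and Plcd3 (0.0410 to 0.0544) and for Agtrap Mzt2, Bmp2k and Eif1ad (0.0111 to 0.0116). For Mme they were Churc1, Rpl17 and Tlk1 (0.00740 to 0.0172) and for Enpep Ripk4, Tmem256 and Smlr1 (0.0218 to 0.0296). The search left out the renin-angiotensin system genes themselves, and symbols ending in Rik or starting with Gm and a digit. It therefore cannot show whether genes of the set lie near each other. None of the other pathway genes was among these 24. Distances over 6 arrays are a description.

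**Figure D5:**
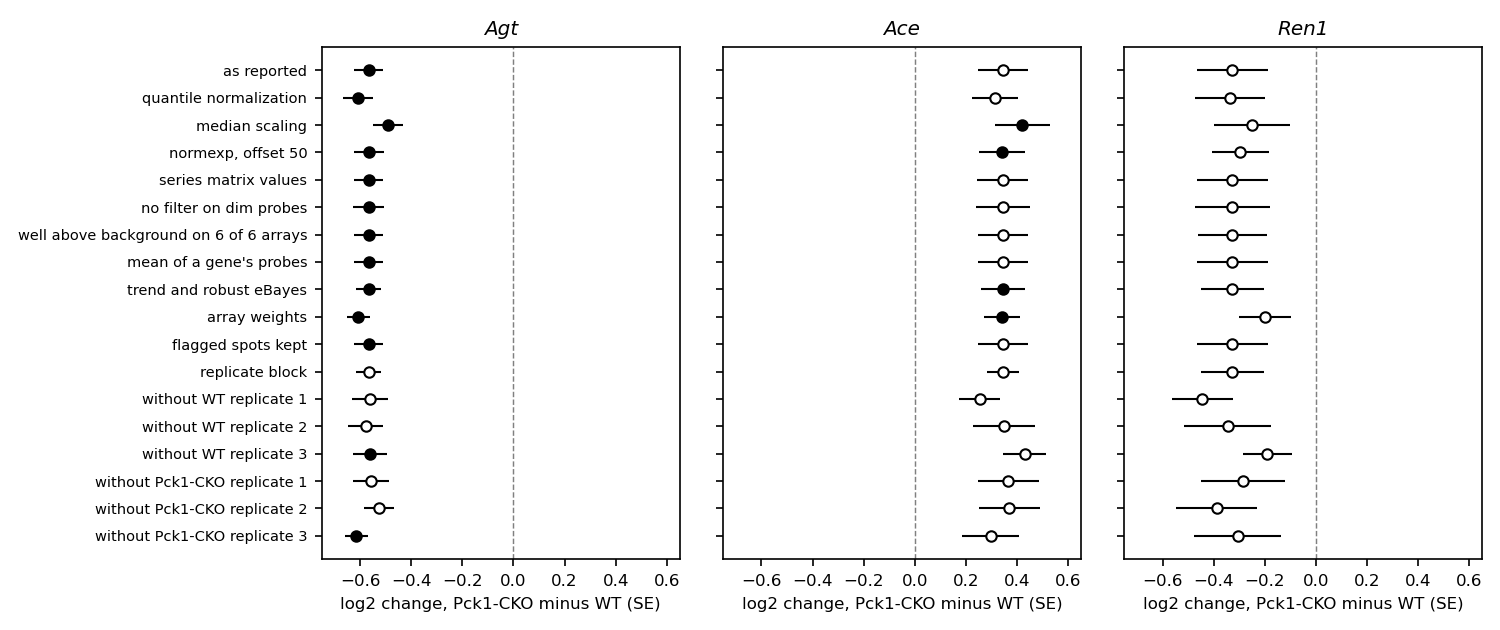
Log2 change of Agt, Ace and Ren1, Pck1-CKO minus WT, as reported and under 17 alternative settings (points with SE; filled points passed the limma test). Agt stays between -0.62 and -0.49 and Ren1 between -0.45 and -0.19, so both remain negative, and Ace stays positive between 0.26 and 0.43 with 4 filled points.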

How the data were processed

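Total RNA of 6 whole-kidney samples was labelled with Cy3 for 1-colour Agilent arrays, per the labels. The intensity values were deposited as written by Agilent Feature Extraction 10.7.1.1 (submitters' processing notes). Its processed signal, used here, has background removed, per the file headers. The values of the series matrix were deposited as a linear ratio, each processed signal divided by 1 factor per array. The array grid was built on a mouse assembly other than that of the promoter table, so only promoters have coordinates here.

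Spots flagged as outliers were left out, spots of a probe averaged and 75th percentiles subtracted on the log2 scale. Probes had to clear background on 3 or more of the 6 arrays (38370 did, with 13 of the 15 probes of the set), symbols came from RefSeq accessions, and a gene's brightest probe stood for it. Groups of 3 arrays were compared with limma 3.58.1 in R 4.3.3 (2-sided, Benjamini-Hochberg), over 17135 genes and, for probes, over 38365 probes. The fit was tested on simulated data. The genes and lists were chosen with earlier results of these data known. Named were all genes of the set and of the pathway list, up to 3 called genes of each other list (with none called, the 1 of lowest p), and the 3 nearest profiles per gene. Values of some listed genes are not reported here, though the counts include them. The arrays' number limits the precision. Alternatives covered scaling, background correction, the deposited matrix, filters, probe choice, variance model, array weights, flagged spots, replicate numbers and left-out arrays.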

Additional observations from a re-analysis of the deposited data

How the results depend on the processing

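Over 17 alternatives, the changes of Ren1, Agt, Ace, Agtr1a, Mas1 and Agtrap kept their sign, and those of Mme and Enpep did not. Mme became 0.0398 with median scaling and 0.00856 with the mean of its probes. Enpep became 0.0503 with median scaling, 0.0242 with array weights, 0.0472 without WT 3 and 0.0178 without Pck1-CKO 1. Of renin-angiotensin system genes, 0 were called higher in the reported fit and 1 with median scaling, normexp, trended and robust variance, or array weights. Called lower were 1 in the reported fit, 2 with the mean of probes and 0 to 1 when an array was left out. Of other pathway genes, 0 were called higher in the reported fit, 1 with median scaling, 1 with trended and robust variance, 2 with array weights and 0 to 1 without 1 array. Called lower was 1, against 0 with quantile normalization, median scaling, no filter or the mean of probes, 2 with trended and robust variance, and 0 in every fit without 1 array.

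Over all genes, 743 higher and 634 lower became 2434 higher with median scaling (560 lower, so that 81.3% of calls were higher against 54.0%, as the median change of all genes moved from 0.01 to 0.08), 61 and 81 without the filter, 1682 and 1149 with trended and robust variance, 3286 and 2614 with array weights, and 16 to 779 and 9 to 806 without 1 array. With the replicate block, 3 genes were higher and 1 lower, with 0 renin-angiotensin system genes and 0 other pathway genes called (Agt at a limma adjusted p of 0.069). Same-numbered arrays shared a slide column. Their deviations from the group means correlated at 0.00, -0.11 and -0.02, against -0.08 to 0.12 for arrays of unlike number. With 3 arrays a group these correlations cannot show whether the replicate numbers pair the arrays. Depth is not defined for these arrays, and Agtr1b, Agtr2, Mrgprd and the mast cell proteases are limited by signal near background.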
